A study of Arabidopsis thaliana with 12 samples.

Results

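The genes described here are 7 relatives of the light-harvesting antenna that are tied to the protection, assembly and pigment supply of the photosystems of Arabidopsis thaliana: PSBS (AT1G44575), OHP1 (AT5G02120), OHP2 (AT1G34000), LIL3:1 (AT4G17600), LIL3:2 (AT5G47110), ELIP1 (AT3G22840) and ELIP2 (AT4G14690). They were chosen by name, through the locus written beside each array probe, and are 7 of the 25665 loci with a probe. All 7 were measured, 6 by a single probe and OHP2 by 2 probes, and each probe was well above background on all 12 arrays.

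Whole 2-week-old seedlings of 3 genotypes in the Columbia-0 ecotype were profiled on 12 one-colour Agilent arrays, 4 per genotype. The first group, 35S:GLK1-SRDX, carried GLK1 fused to the SRDX repression domain under the constitutive 35S promoter, in plants whose own GLK genes are not labelled as mutated. The second was the glk1 glk2 double mutant, and the third was wild type. No treatment was given, all seedlings grew on MS agar with 1% sucrose in 16 h light and 8 h dark at 23 °C, and many seedlings were harvested for an extract. The labels give neither the mutant alleles nor the number of transgenic lines, and do not say whether replicates were separate harvests, so the tests measure the spread between these arrays, which may be partly technical.

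GLK1 and GLK2 are nuclear transcription factors of chloroplast development, known as activators of antenna and chlorophyll synthesis genes, and an SRDX fusion turns an activator into a dominant repressor. The proteins studied here share a membrane helix related to that of the antenna but do not collect light. PSBS senses the acidification of the thylakoid lumen and switches on the rapid dissipation of excess excitation as heat. OHP1 and OHP2, the ONE-HELIX PROTEINS, pair with each other and with the assembly factor HCF244 while photosystem II reaction centres are built. LIL3 proteins hold geranylgeranyl reductase and protochlorophyllide oxidoreductase at the membrane during the last steps of chlorophyll synthesis, and ELIPs, the early light-induced proteins, accumulate briefly under strong light and during greening.

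A level is given here as a multiple of the 75th percentile of the probes of its array. That percentile ran from 1522 to 2480 intensity units over the arrays, 63.9% to 68.5% of probes were well above background on an array, and 0 spots were saturated. The GLK2 probe averaged 0.0265 in glk1 glk2 and 4.84 in wild type, a 183-fold lower level (limma, adjusted p = 5.12e-09), and the GLK1 probe was 4.68-fold lower (adjusted p = 0.00290), so the mutant arrays followed their labels. In GLK1-SRDX the GLK1 probe stood at 1.79-fold and the GLK2 probe at 1.54-fold of wild type (limma, adjusted p = 0.0661 and 0.0538), neither past the threshold of 0.05. The labels do not say whether the GLK1 probe lies in the transgene. All 10 shoot markers were well above background on every array. Of the 20 root markers, 17 in GLK1-SRDX, 19 in glk1 glk2 and 19 in wild type were above background on all 4 arrays, and none was absent. The 4 GLK1-SRDX arrays shared a slide that held no other genotype, so that effects of that slide and of GLK1-SRDX cannot be told apart, while 2 slides held 2 glk1 glk2 and 2 wild type arrays each.

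Whereas 16 of 21 antenna genes fell in glk1 glk2, the fitted levels of 6 of these 7 genes lay at 0.960 to 1.13-fold of wild type, and that of ELIP2 at 1.85-fold with an interval that includes no difference. None of the 7 changed in glk1 glk2 versus wild type (limma with Benjamini-Hochberg adjustment over 20640 tested loci, threshold 0.05), against 3.3% of all tested loci, and the count at an unadjusted p under 0.05 was also 0, against 19.6% of loci. In GLK1-SRDX versus wild type 0 of 7 changed, against 14.3% of loci, and in GLK1-SRDX versus glk1 glk2 0 of 7 changed, against 9.27% of loci, again with 0 at the unadjusted level in both, against 30.7% and 24.5% of loci. The arrays of the 2 groups overlapped for each of the 7 genes in each of the 3 comparisons. Of all loci, 9.84% did not overlap in glk1 glk2 versus wild type, 28.0% in GLK1-SRDX versus wild type and 17.3% in GLK1-SRDX versus glk1 glk2. The median log2 fold change of the 7 genes was 0.02, -0.05 and -0.03 in these comparisons in turn, beside 0.00, 0.01 and -0.01 over all tested loci. Since the seedlings were extracted whole, a smaller share of cells of one kind and less RNA per cell cannot be told apart for any gene.

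**Figure D1:**
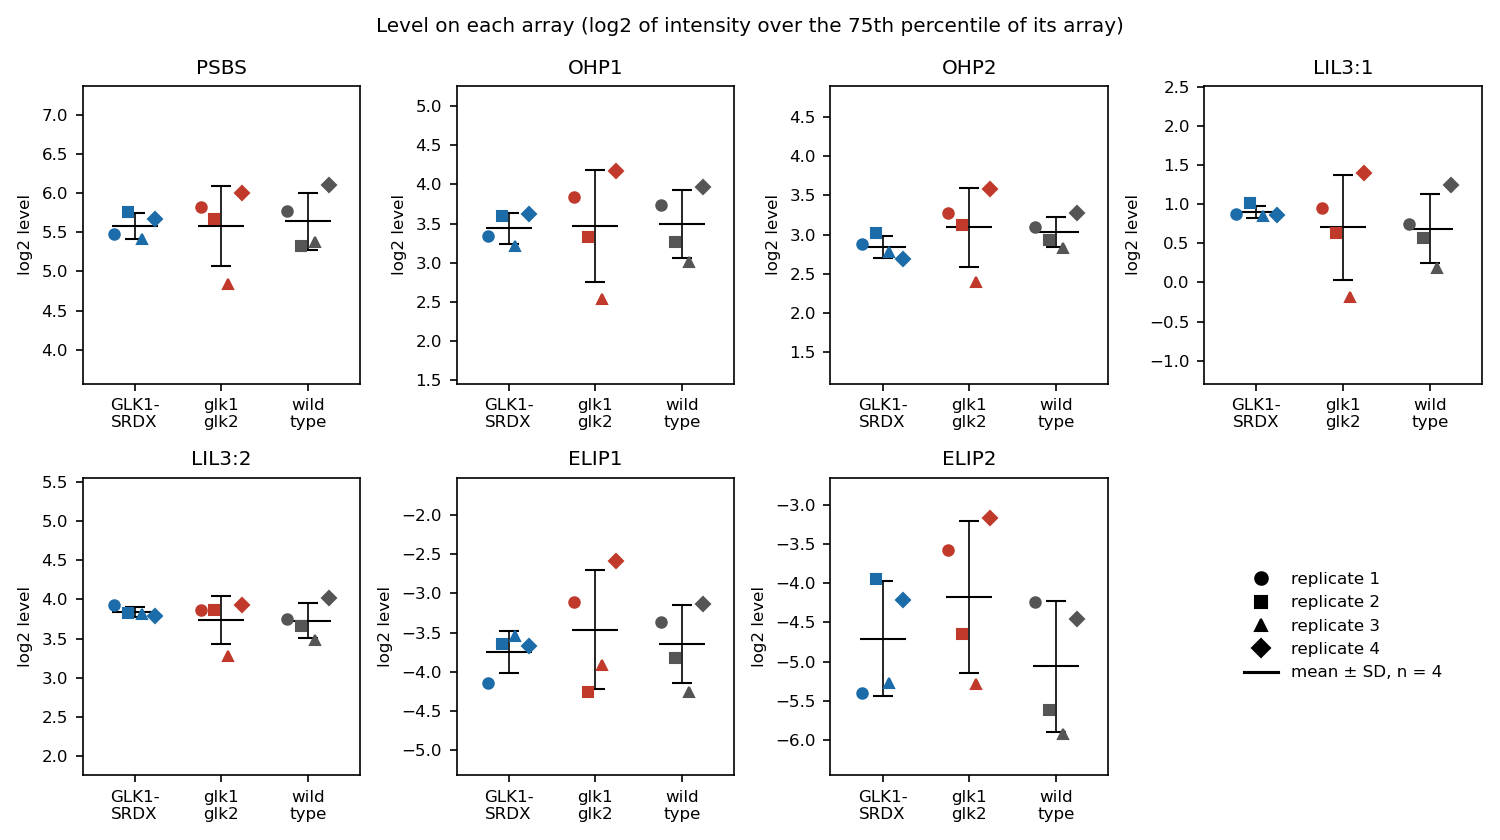
Level of each gene on each array, as log2 of the intensity over the array's 75th percentile, for the 4 arrays of GLK1-SRDX, glk1 glk2 and wild type; symbols mark the replicate number and bars the mean ± SD (n = 4), and every panel spans the same number of log2 units. The genotypes overlap for each gene, and the glk1 glk2 arrays spread widest for 7 of 7 genes. The median SD over all tested loci was also widest in glk1 glk2, at 0.25 against 0.12 in GLK1-SRDX and 0.19 in wild type.

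PSBS, the trigger of rapid heat dissipation, was measured at 44.4, 54.2, 42.6 and 50.9 times the array's 75th percentile in GLK1-SRDX, at 56.8, 50.8, 28.6 and 63.9 in glk1 glk2, and at 54.4, 40.2, 41.4 and 68.5 in wild type. Replicate 3 was the lowest array of glk1 glk2 and replicate 4 the highest in both glk1 glk2 and wild type, and the GLK1-SRDX arrays lay inside the range of the other two genotypes. The geometric means were 47.8 in GLK1-SRDX, 47.9 in glk1 glk2 and 49.9 in wild type. The fitted difference between glk1 glk2 and wild type was 0.960-fold with a 95% interval of 0.658 to 1.4-fold (limma, adjusted p = 0.920), and that between GLK1-SRDX and wild type was 0.958-fold with an interval of 0.656 to 1.4-fold (adjusted p = 0.894). GLK1-SRDX and glk1 glk2 differed by 0.998-fold (interval 0.684 to 1.46-fold, adjusted p = 0.996). No pair of genotypes differed beyond the spread of its arrays. The intervals of the 3 comparisons reached from 0.656 to 1.46-fold, while among wild type arrays the highest was 1.71 times the lowest.

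OHP1 had levels of 10.1, 12.1, 9.30 and 12.3 in GLK1-SRDX, 14.3, 10.02, 5.78 and 18.1 in glk1 glk2, and 13.3, 9.64, 8.04 and 15.6 in wild type. Replicate 4 was highest and replicate 3 lowest in each of the 3 genotypes, and the range of glk1 glk2 enclosed both others. OHP1 was 0.981-fold in glk1 glk2 relative to wild type (interval 0.598 to 1.61-fold, adjusted p = 0.974) and 0.963-fold in GLK1-SRDX relative to wild type (interval 0.587 to 1.58-fold, adjusted p = 0.931). GLK1-SRDX had the lowest of the 3 means, glk1 glk2 the middle one and wild type the highest, with no neighbours apart beyond their spread, and GLK1-SRDX was 0.982-fold of glk1 glk2 (adjusted p = 0.975).

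OHP2, its partner in the same complex, had levels of 7.34, 8.12, 6.88 and 6.46 in GLK1-SRDX, 9.69, 8.70, 5.27 and 12.02 in glk1 glk2, and 8.57, 7.64, 7.10 and 9.68 in wild type. Here 3 of the 4 GLK1-SRDX arrays lay below 3 of the 4 wild type arrays, and the groups still overlapped. OHP2 was 1.04-fold in glk1 glk2 relative to wild type (interval 0.753 to 1.45-fold, adjusted p = 0.906) and 0.876-fold in GLK1-SRDX relative to wild type (interval 0.632 to 1.21-fold, adjusted p = 0.584). GLK1-SRDX stood at 0.839-fold of glk1 glk2 (interval 0.606 to 1.16-fold, adjusted p = 0.530). A second probe, designed on another transcript of OHP2, gave log2 fold changes of -0.03, -0.13 and -0.10 for glk1 glk2 versus wild type, GLK1-SRDX versus wild type and GLK1-SRDX versus glk1 glk2, beside 0.06, -0.19 and -0.25 from the first.

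OHP2 was the member whose call in GLK1-SRDX depended on the fit. Without glk1 glk2 replicate 3 it fell in GLK1-SRDX versus glk1 glk2 by 0.49 on the log2 scale (adjusted p = 0.0484), where 13.0% of all loci were called, 5.86% as lower. When the fit was given the mean root-marker level, a setting added once values were known, OHP2 fell by 0.77 against wild type (adjusted p = 0.0230, 11.8% of loci called, 5.23% as lower) and by 0.41 against glk1 glk2 (adjusted p = 0.0498, 16.7% of loci called, 7.63% as lower). The ranges of those root-marker means were separate in GLK1-SRDX and wild type, so that this fit had to extrapolate between the genotypes.

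The LIL3 pair gave the narrowest spread in GLK1-SRDX. LIL3:1 had levels of 1.84, 2.02, 1.81 and 1.82 in GLK1-SRDX, 1.94, 1.55, 0.880 and 2.64 in glk1 glk2, and 1.68, 1.48, 1.14 and 2.36 in wild type. The GLK1-SRDX arrays thus fell within the middle of the wild type range, while glk1 glk2 and wild type each held their lowest array at replicate 3 and their highest at replicate 4. LIL3:1 was 1.01-fold in glk1 glk2 relative to wild type (interval 0.637 to 1.61-fold, adjusted p = 0.982) and 1.16-fold in GLK1-SRDX relative to wild type (interval 0.731 to 1.85-fold, adjusted p = 0.670). Between GLK1-SRDX, the highest of the 3 means, and glk1 glk2 it differed by 1.15-fold (interval 0.722 to 1.83-fold, adjusted p = 0.753).

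LIL3:2 had levels of 15.2, 14.2, 14.1 and 13.8 in GLK1-SRDX, 14.6, 14.6, 9.68 and 15.2 in glk1 glk2, and 13.5, 12.6, 11.1 and 16.2 in wild type. Only glk1 glk2 replicate 3 lay below the wild type range. LIL3:2 was the most tightly measured of the 7 genes, at 1.00-fold in glk1 glk2 relative to wild type (interval 0.796 to 1.27-fold, adjusted p = 0.987) and 1.08-fold in GLK1-SRDX relative to wild type (interval 0.856 to 1.36-fold, adjusted p = 0.667). Between GLK1-SRDX and glk1 glk2 it differed by 1.07-fold (interval 0.852 to 1.36-fold, adjusted p = 0.741).

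The ELIP probes were dim, ELIP1 at 79.8 to 414 and ELIP2 at 33.0 to 276 intensity units, and both lay well above background on every array. ELIP1 had levels of 0.0565, 0.0798, 0.0861 and 0.0786 in GLK1-SRDX, 0.116, 0.0524, 0.0662 and 0.167 in glk1 glk2, and 0.0970, 0.0703, 0.0523 and 0.114 in wild type. Replicates 1 and 4 were the higher arrays in both glk1 glk2 and wild type, and the groups overlapped throughout. ELIP1 was 1.13-fold in glk1 glk2 relative to wild type (interval 0.658 to 1.96-fold, adjusted p = 0.821) and 0.931-fold in GLK1-SRDX relative to wild type (interval 0.540 to 1.61-fold, adjusted p = 0.877). GLK1-SRDX, the lowest of the 3 means, stood at 0.821-fold of glk1 glk2, the highest (interval 0.476 to 1.42-fold, adjusted p = 0.693).

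ELIP2 was the member with the largest fitted difference. Its levels were 0.0236, 0.0651, 0.0259 and 0.0542 in GLK1-SRDX, 0.0838, 0.0399, 0.0255 and 0.111 in glk1 glk2, and 0.0531, 0.0204, 0.0164 and 0.0454 in wild type. In glk1 glk2 the 2 highest arrays stood above every wild type array, and the other two lay inside the wild type range. The fit put ELIP2 at 1.85-fold in glk1 glk2 relative to wild type, a log2 fold change of 0.89 that exceeded those of 99.5% of tested loci, but with an interval of 0.794 to 4.31-fold (adjusted p = 0.403). In GLK1-SRDX it was 1.28-fold relative to wild type (interval 0.548 to 2.98-fold, adjusted p = 0.710) and 0.691-fold relative to glk1 glk2 (interval 0.296 to 1.61-fold, adjusted p = 0.622).

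Same-numbered glk1 glk2 and wild type arrays deviated from their group means together. Such arrays also shared a slide, differently numbered arrays were not compared, and the labels do not say that equal numbers mark a pair. When arrays were paired by number, ELIP2 was higher in glk1 glk2 in 4 of 4 pairs. Its 4 pair differences were 1.58, 1.95, 1.55 and 2.45-fold for replicates 1 to 4. With the replicate number as a block ELIP2 rose in glk1 glk2 (log2 fold change 0.89 ± 0.13 SE, interval 0.54 to 1.23, limma adjusted p = 0.0386), and it was the only one of the 7 genes to do so. That fit called 6.88% of all loci, 4.6% as higher, and 22.7% of loci were higher in all 4 pairs. The call was lost when pair 1, 2 or 4 was left out (adjusted p = 0.193, 0.152 and 0.173), in fits that called 6, 19 and 19 loci in all, and it stood without pair 3 (adjusted p = 0.0211, 6631 loci called). With the block and the normexp background the log2 fold change was 0.54 (adjusted p = 0.0793), and with the block and the root-marker mean in the fit it was 0.62 (adjusted p = 0.163). ELIP1 was higher in glk1 glk2 in 3 of 4 pairs, at 1.2, 0.745, 1.26 and 1.47-fold for replicates 1 to 4. OHP1, OHP2 and LIL3:1 were also higher in 3 of 4 pairs, PSBS and LIL3:2 in 2 of 4, and replicate 3 was the one pair in which all 5 of these genes were lower in glk1 glk2.

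**Figure D2:**
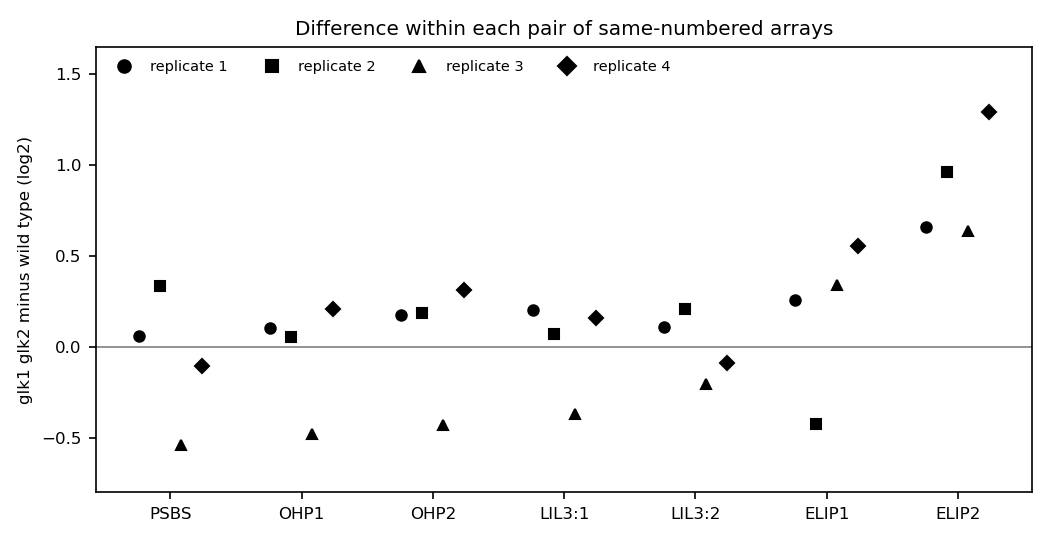
Difference in log2 level between the glk1 glk2 and the wild type array of the same replicate number, for each gene, with 1 symbol per replicate number. ELIP2 lies above 0 in 4 of 4 pairs, whereas replicate 3 lies below 0 for the 5 genes PSBS, OHP1, OHP2, LIL3:1 and LIL3:2.

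The antenna provided the contrast. Of the 21 LHCA and LHCB genes 16 fell in glk1 glk2 and none rose, with a median log2 fold change of -0.83, and LHCB1.4 (log2 fold change -7.87), LHCB2.3 (-2.68, adjusted p = 0.0325) and LHCB2.2 (-2.51, adjusted p = 0.0484) fell furthest. LHCB2.3 was called in 23 and LHCB2.2 in 16 of 35 alternatives, and LHCB1 and LHCB2 genes are close copies whose probes may share signal. With median scaling 8 antenna genes fell, with only the 2 genotypes in the fit 5, with slide as a block 4, within slide 1 alone 2 and within slide 2 alone 0. Without 1 array 7 to 16 fell, the count being 7 without wild type replicate 2 or 4, 8 without glk1 glk2 replicate 1 and 10 without wild type replicate 1. The share of all loci with a 95% interval above the antenna median of -0.83 was not counted, and the median of all loci was 0.00. The 95% intervals of all 7 genes described here lay above that antenna median. The same held for 5 or more of the 7 under another background correction and under other scalings, for 4 of the 7 with slide as a block, for 3 of the 7 with the root-marker covariate, and for 5 of 7 within slide 1 and 0 of 7 within slide 2, where 2 arrays met 2. When levels were expressed relative to the antenna, each of the 7 genes was higher in glk1 glk2 than in wild type, with log2 fold changes of 0.79 for PSBS to 1.74 for ELIP2, but 77.0% of all loci were also called higher on that scale.

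In GLK1-SRDX versus wild type 1 of 21 antenna genes fell, LHCB4.3, a minor photosystem II antenna gene (-1.51, adjusted p = 0.000742), the antenna median was -0.22, and 20 of 21 fitted values were negative. With the root-marker mean in the fit 9 antenna genes fell (median -0.61), and without glk1 glk2 replicate 3 the count was 4. With all 12 arrays and no block or covariate, none of the 7 genes had an interval wholly above the antenna median of -0.22. LIL3:2 alone had an interval above the antenna median of the same fit with the replicate block, only the 2 genotypes or the root-marker mean. The same held with slide as a random block, and without wild type replicate 1 or 4 or glk1 glk2 replicate 3. Relative to glk1 glk2, 12 antenna genes rose and 1 (LHCB4.3) fell in GLK1-SRDX, with a median of 0.59, and LHCB1.4 (7.75), LHCB4.2 (2.21) and LHCB3 (1.75) rose most. The count of rises was 6 with median scaling, 7 with the replicate block, 6 without GLK1-SRDX replicate 2, 7 without its replicate 1 or 4, and 8 without its replicate 3 or glk1 glk2 replicate 1; LHCB4.3 was not called in any of these 7 fits. The 3 comparisons share arrays, so these values are not independent of each other.

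**Figure D3:**
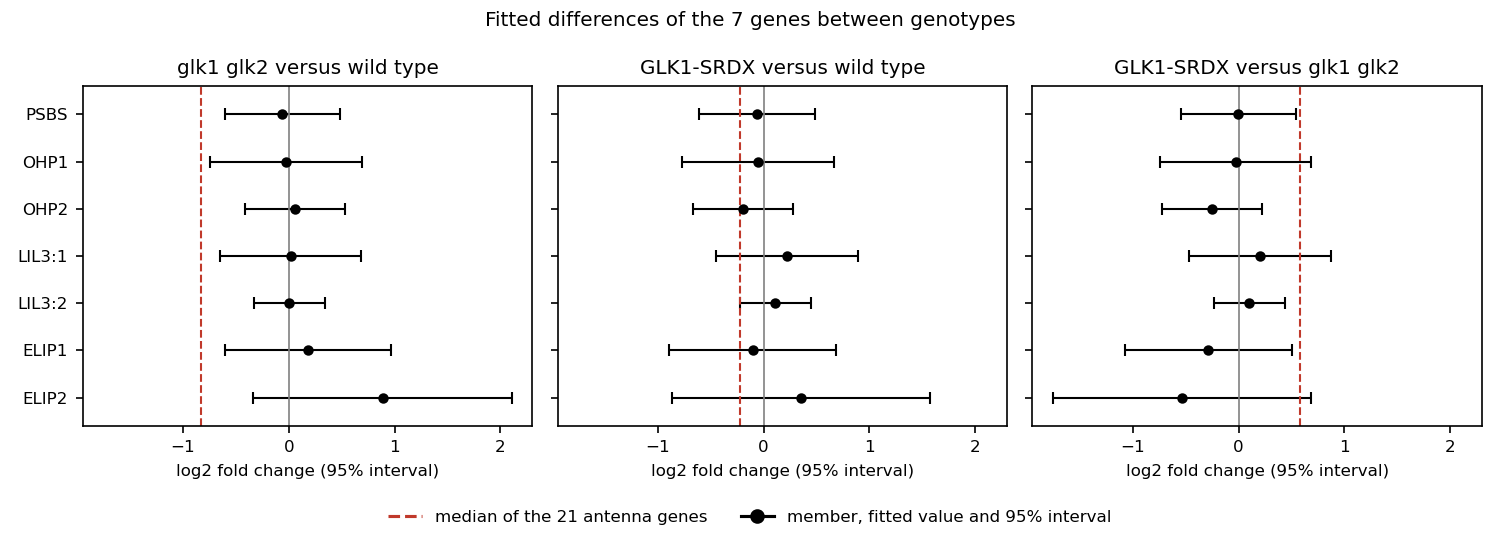
Fitted log2 fold change of each gene with its 95% interval in the 3 comparisons; the grey line marks 0 and the dashed line the median of the 21 antenna genes (-0.83, -0.22 and 0.59). All intervals include 0, and in glk1 glk2 versus wild type all lie above the antenna median, a feature not counted over all loci.

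Other genes of the same processes were counted beside them. The 3 further antenna relatives, the stress-enhanced proteins SEP1 and SEP2 and the ferrochelatase FC2, did not pass the test in any comparison. Their smallest p belonged to SEP1 in glk1 glk2 (0.25, adjusted p = 0.508) and to SEP2 in GLK1-SRDX against wild type (-0.43, adjusted p = 0.180) and against glk1 glk2 (-0.45, adjusted p = 0.197). Among alternatives SEP1 was called in 1 of 35, and SEP2 in 1 of 24 against wild type and 2 of 24 against glk1 glk2.

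Among 7 genes that act beside LIL3 in the last steps of chlorophyll synthesis, 3 fell in glk1 glk2 and none rose. PORA, a light-dependent protochlorophyllide oxidoreductase, fell 34.0-fold (-5.09, adjusted p = 0.00102), PORB, a second such enzyme, by 0.78 (adjusted p = 0.0371), and CHLP, the geranylgeranyl reductase, by 0.69 on the log2 scale (adjusted p = 0.0432). The PORB and CHLP calls were lost under median scaling (adjusted p = 0.109 and 0.162) and when replicate 1, 2 or 4 of wild type or of glk1 glk2, or any GLK1-SRDX array, was left out; the CHLP call was also lost without wild type replicate 3. In GLK1-SRDX only PORA of the 7 fell against wild type, 21.01-fold (-4.39, adjusted p = 0.000711). PORB (1.01, adjusted p = 0.00563) and CHLP (0.70, adjusted p = 0.0212) rose in GLK1-SRDX relative to glk1 glk2, CHLP losing its call with the replicate block (adjusted p = 0.0662) under median scaling (adjusted p = 0.0944), with only the 2 genotypes in the fit (adjusted p = 0.0620) or without GLK1-SRDX replicate 1, 2 or 4. LIL3:1 and LIL3:2, whose products hold these enzymes, had fitted levels of 1.00 to 1.16-fold of wild type in both genotypes.

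Of 6 genes that assemble photosystem II beside OHP1 and OHP2, none changed in glk1 glk2, where LPA1, a reaction centre assembly factor, had the smallest p (0.26, adjusted p = 0.443). The 2 fits that lacked glk1 glk2 replicate 3 did call LPA1 higher, the plain one (0.45, adjusted p = 0.0423) and the blocked one without pair 3 (adjusted p = 0.0218). PAM68, another assembly factor of photosystem II, rose in GLK1-SRDX by 0.65 against wild type (adjusted p = 0.0116) and by 0.59 against glk1 glk2 (adjusted p = 0.0218). Given the root-marker mean, the first call was lost (0.31, adjusted p = 0.16), and the second was lost with the replicate block (adjusted p = 0.0876) or under median scaling (adjusted p = 0.0837), and without GLK1-SRDX replicate 1, 2 or 3. HCF244, the direct partner of both OHP proteins, had log2 fold changes of 0.23 in glk1 glk2 (adjusted p = 0.740) and -0.34 in GLK1-SRDX (adjusted p = 0.511) relative to wild type.

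Of 17 genes of the xanthophyll cycle, its substrates and other routes of energy dissipation, which work beside PSBS, none passed in either comparison with wild type. BCH2, a beta-carotene hydroxylase, had the smallest p in glk1 glk2 (-1.35, adjusted p = 0.115) and fell there with the replicate block (adjusted p = 0.0173). That call was lost without pair 1, 2 or 4 and with the root-marker mean added (adjusted p = 0.109). LCNP, the plastid lipocalin of sustained quenching, had the smallest p in GLK1-SRDX (0.32, adjusted p = 0.0671) and was called in 6 of 24 alternatives. BCH1, the other hydroxylase, fell in GLK1-SRDX relative to glk1 glk2 (-1.12, adjusted p = 0.0214), a call lost under median scaling (adjusted p = 0.0556) and without GLK1-SRDX replicate 1, 3 or 4 or glk1 glk2 replicate 1 or 2. VDE, which makes zeaxanthin in strong light, stood at 0.34 in glk1 glk2 (adjusted p = 0.292) and -0.00 in GLK1-SRDX (adjusted p = 0.988). Of 8 genes of the light and UV-B signalling that is known to induce ELIPs, none passed in any comparison. HY5, a central transcription factor of that route, had the smallest p in glk1 glk2 (0.32, adjusted p = 0.182), UVR8, the UV-B receptor, in GLK1-SRDX (0.22, adjusted p = 0.120), and CRY1, a blue light receptor, between GLK1-SRDX and glk1 glk2 (0.33, adjusted p = 0.0733). In these comparisons HY5 was called in 2 of 35 alternatives, UVR8 in 0 of 24 and CRY1 in 3 of 24.

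**Figure D4:**
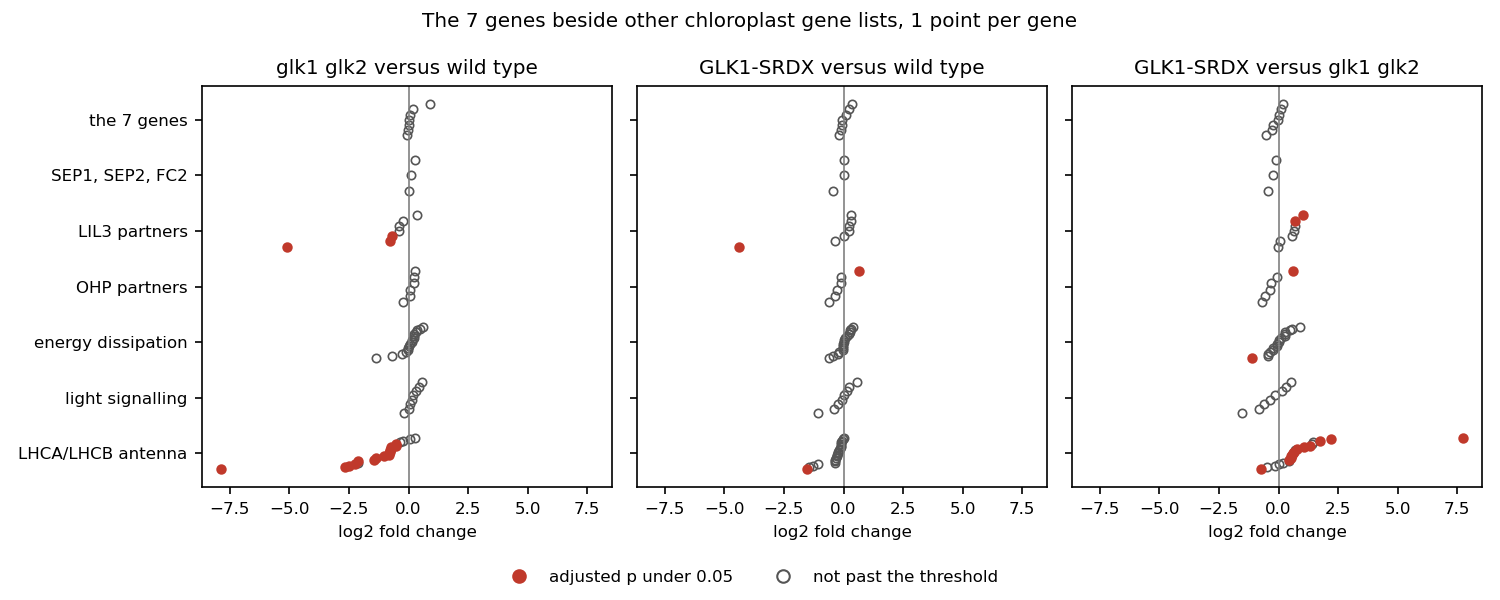
Fitted log2 fold change of every gene of each list in the 3 comparisons, 1 point per gene; filled points passed an adjusted p of 0.05. The 7 genes lie around 0 without a filled point, while PORA lies near -5 in glk1 glk2 and near -4 in GLK1-SRDX, and the antenna extends to -7.87 in glk1 glk2.

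Most of the 7 genes had their highest and lowest levels on the same arrays of glk1 glk2 and of wild type. The share of all loci with that order was not counted, so it is not shown to be particular to these genes. In glk1 glk2 replicate 4 was the highest array for 7 of 7 genes and replicate 3 the lowest for 6 of 7, ELIP1 being lowest in replicate 2. In wild type replicate 4 was highest for 6 of 7, all but ELIP2, and replicate 3 lowest for 6 of 7, all but PSBS. In GLK1-SRDX the highest array was replicate 2 for 4 genes and differed for the other three. The SD of the log2 level in glk1 glk2 ran from 0.31 for LIL3:2 to 0.97 for ELIP2, against a median of 0.25 over all tested loci. In GLK1-SRDX it ran from 0.06 for LIL3:2 to 0.74 for ELIP2 (median of all loci 0.12), and in wild type from 0.20 for OHP2 to 0.84 for ELIP2 (median of all loci 0.19).

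The summed root-marker level also differed between arrays. It was 36.1 to 69.5 in GLK1-SRDX, 28.8 to 90.7 in glk1 glk2 and 52.9 to 76.9 in wild type, and in glk1 glk2 and wild type it was highest on replicate 3 and lowest on replicate 4, the reverse of most of the 7 genes. By the mean log2 level of the markers, however, wild type replicates 1 to 4 stood at -1.39, -1.40, -1.62 and -1.9, so that replicate 3 was not high there. The part of root content in these differences was not tested beyond the covariate below. Between genotypes the median log2 fold change of the 20 root markers was -1.15 in glk1 glk2 versus wild type, with 0 of 20 called (12 at an unadjusted p under 0.05, against 19.6% of all loci), and -1.60 in GLK1-SRDX versus wild type, with 9 of 20 lower. CASP5, a Casparian strip gene, was at least 20.1-fold lower in GLK1-SRDX than in wild type (adjusted p = 0.00262, above background on 2 of the 4 GLK1-SRDX arrays), and TIP2;3 (-2.85, adjusted p = 0.0105) and PRP3 (-2.04, adjusted p = 0.0349) fell as well. PRP3 was called in 15 of 24 alternatives, its call being lost when wild type replicate 1, 2 or 3 or any GLK1-SRDX array was left out, and with the root-marker mean in the fit its value was -0.39. Of the 10 shoot markers AS1 rose (0.60, adjusted p = 0.00188) and CA1 fell (-1.10, adjusted p = 0.0166) in GLK1-SRDX relative to wild type, and none was called in the other comparisons, although AS1 passed in glk1 glk2 versus wild type in 3 of 35 alternatives. With that covariate none of the 7 genes was called in glk1 glk2 versus wild type (2.94% of loci called), where log2 fold changes ran from -0.54 for OHP1 to 0.29 for ELIP2.

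**Figure D5:**
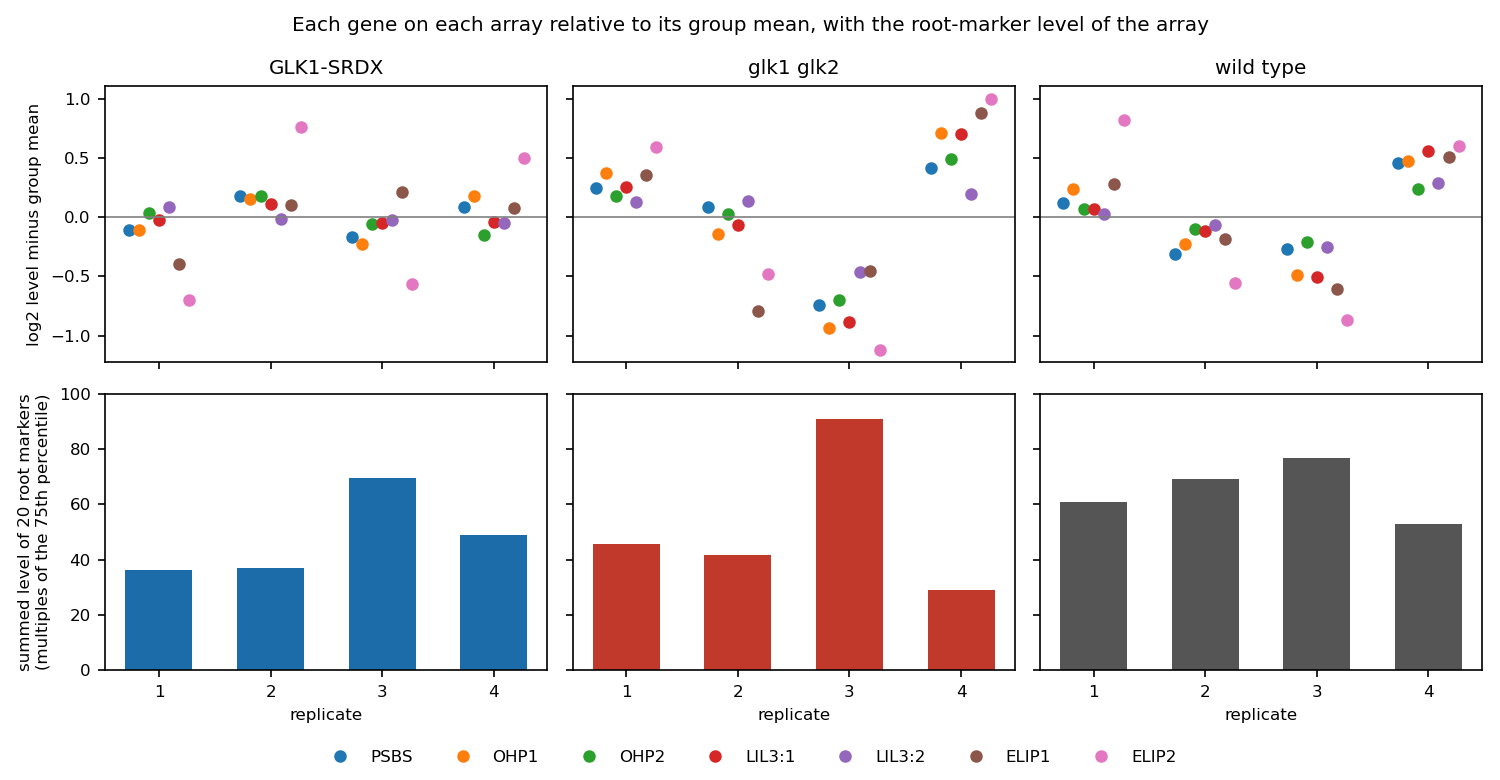
Upper row, log2 level of each gene on each array minus the mean of its genotype; lower row, summed level of the 20 root markers on the same array, in multiples of the array's 75th percentile. In glk1 glk2 and wild type most genes are lowest on replicate 3, where the root-marker sum is highest (90.7 and 76.9), and highest on replicate 4, where it is lowest (28.8 and 52.9).

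The tested genes with a symbol whose levels most resembled each member were ranked by Pearson r over the 12 arrays, which share the scaling and the 3 genotypes, and r is given as a description only. For PSBS they were 2-Cys Prx B (0.976), PPD6 (0.973) and ACHT2 (0.969). For OHP1 they were PPD6 (0.978), PPT2 (0.976) and TRXF1 (0.974), and for OHP2 HMA1 (0.970), HBP5 (0.965) and CSK (0.963). PPD6 was therefore among the closest for both PSBS and OHP1. LIL3:1 was closest to PLSP1 (0.982), ATAB2 (0.981) and PHOT2 (0.981), and LIL3:2 to EMB3113 (0.956), ATCTH (0.955) and DHAR3 (0.952). The dim ELIP probes had lower values, ELIP1 with CRK3 (0.933), CYCD4;2 (0.920) and HSF3 (0.912) and ELIP2 with NDA1 (0.946), KAC2 (0.929) and WDL1 (0.922). Ranked by Spearman rho or by deviations from the genotype means, 0 or 1 of the 3 names was shared for each gene, so the order among the closest genes depended on the measure.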

How the data were processed

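The deposited scanner files hold a processed intensity per spot, background-subtracted by Feature Extraction 9.1.3.1, as their headers say. The authors' series value table holds the same intensity divided by 1 constant per genotype, a constant of unknown origin that was found by comparing both. Levels are log2 intensities minus the 75th percentile of the same array, after control and outlier spots were left out. The brightest probe stood for a locus, and the test took loci whose probe rose well above background on 4 or more of 12 arrays and was unmarked on 3 or more per group, 20640 of 25665. limma 3.58.1 (R 4.3.3) tested the 3 contrasts between genotypes over the 12 arrays, with two-sided tests, 9 residual degrees of freedom and a median SE of 0.14. The number of arrays limits the precision. On simulated arrays of the same design, 64% of 2-fold and 88% of 4-fold changes were recovered.

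Groups and replicate numbers came from the sample titles. Same-numbered glk1 glk2 and wild type arrays had correlated deviations (r = 0.319, 0.383, 0.464 and 0.757), so a replicate block was fitted as an alternative. These arrays also shared a slide, and differently numbered arrays were not compared. For same-numbered GLK1-SRDX arrays r ran from -0.200 to 0.261 against wild type. Against glk1 glk2 it was -0.00779, 0.195, 0.576 and -0.0961 for replicates 1 to 4. The gene list, its companion lists and the tests were chosen with earlier results of these data known. Named companions were those past the threshold with the largest change, up to 3 per list and comparison, or else the smallest p; HCF244, VDE and the settings named for PORB, CHLP, PAM68 and BCH1 were chosen after values were seen. The normexp alternative used median in place of mean spot signals and left out 10 spots of wild type replicate 3 whose local background reached 65211. Symbols for 9080 tested loci came from RefSeq TAIR10.1. No sequence is shown, as none was at hand for these probes. Other alternatives were median scaling, quantile normalization, the series table scaled or unscaled, other filters and probe rules, 2 groups only, slide as a block, a root-marker covariate and leaving out each array.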

Additional observations from a re-analysis of the deposited data

Results flagged for a closer look

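Among the 21 sets of 4 arrays (7 genes in 3 genotypes) 2 held an array that stood apart from the rest by Dixon's criterion for 4 values. The sets share arrays and are not independent, so 2 is not shown to be more than chance gives. LIL3:1 was highest in GLK1-SRDX replicate 2, at 2.02 times the array's 75th percentile against 1.84 on the nearest array. The gap was 0.853 of the whole range, above the critical value, in a group whose arrays span little. LIL3:2 was lowest in glk1 glk2 replicate 3, at 9.68 against 14.6 on the nearest array, a gap of 0.904 of the range. The same array was lowest for 6 of the 7 genes and held the highest root-marker sum of the genotype (90.7). Without it LIL3:2 remained uncalled in each comparison.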

How the results depend on the processing

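None of the 7 genes passed under median or quantile scaling, normexp background, the series table, other filters or probe rules, or slide as a block, and none reversed with a call. Calls appeared in 7 of the 587 recomputed member values. With the replicate block 1 of the 7 genes (ELIP2) was called in glk1 glk2 versus wild type, likewise 1 with the block and median scaling, 1 with the block and quantile scaling and 1 with the block without pair 3; the block changed no other call among the 7. With the root-marker covariate 1 gene (OHP2) was called in GLK1-SRDX versus wild type and 1 (OHP2) versus glk1 glk2. Leaving out 1 array gave 0 to 0, 0 to 0 and 0 to 1 called of the 7 in glk1 glk2 versus wild type, GLK1-SRDX versus wild type and GLK1-SRDX versus glk1 glk2, and 252 to 3221, 1502 to 4422 and 996 to 2676 loci in all, beside 681, 2948 and 1913 with all arrays; the highest count in each comparison came without glk1 glk2 replicate 3.

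Loci called in glk1 glk2 versus wild type numbered 1944 (1779 higher, 165 lower) with median scaling, beside 453 higher and 228 lower in the 75th percentile scaling, 136 (4 higher, 132 lower) in the unscaled series table, 115 with only 2 groups, 1420 with the replicate block, 1494 with the block and median scaling, 1300 with the block and quantile scaling, 22 with the block and the root-marker covariate, 6, 19, 6631 and 19 with the block without pairs 1 to 4, 64 with slide as a block, 20 within slide 1 and 0 within slide 2. In GLK1-SRDX versus wild type they numbered 4712 (3763 higher, 949 lower) with median scaling and 909 (562 higher, 347 lower) in the unscaled table, beside 1628 higher and 1320 lower. In GLK1-SRDX versus glk1 glk2 they numbered 1205 with median scaling, 1260 with only 2 groups, 715 with the replicate block and 3439 with the covariate, and the unscaled table gave 1402 higher and 148 lower, beside 1146 and 767. Median scaling moved the median of all loci to 0.20 against wild type in both genotypes, and the unscaled table moved it to -0.19, 0.11 and 0.28.

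Some fitted values, of which none was called, changed sign. In glk1 glk2 versus wild type these were, with median scaling, OHP1 0.17 and PSBS 0.13 (the same with the block), with normexp LIL3:2 -0.0043 (the same with the block), with quantile scaling LIL3:1 -0.015, LIL3:2 -0.092 and OHP2 -0.019 (the same with the block), with the unscaled table ELIP1 -0.0048, LIL3:1 -0.17, LIL3:2 -0.18 and OHP2 -0.13, and for the second OHP2 probe -0.031. With the root-marker covariate they were ELIP1 -0.10, LIL3:1 -0.51, LIL3:2 -0.24, OHP2 -0.35, LPA1 -0.052 and SEP1 -0.039, and with block and covariate LIL3:1 -0.21, LIL3:2 -0.091 and OHP2 -0.26. With the block, without pair 1 LIL3:1 was -0.045 and LIL3:2 -0.028, without pair 2 they were -0.00046 and -0.060, without pair 3 OHP1 was 0.12 and PSBS 0.099, and without pair 4 LIL3:1 was -0.030 and OHP2 -0.022. Within slide 1 ELIP1 was -0.082, OHP1 0.080 and PSBS 0.20, and within slide 2 LIL3:1 was -0.10, LIL3:2 -0.14 and OHP2 -0.059. In GLK1-SRDX versus wild type ELIP1 was 0.085, OHP1 0.13 and PSBS 0.13 with median scaling, ELIP1 0.0011 with normexp and 0.066 with quantile scaling, ELIP2 -0.48, LIL3:1 -0.52 and LIL3:2 -0.23 with the covariate, and ELIP1 0.0017, OHP1 0.051 and PSBS 0.042 in the unscaled table. In GLK1-SRDX versus glk1 glk2 OHP1 was 0.0043 with normexp, OHP1 0.020 and PSBS 0.015 with quantile scaling, LIL3:1 -0.0069 with the covariate, ELIP1 0.0065, OHP1 0.26, OHP2 0.039 and PSBS 0.29 in the unscaled table, and PSBS 0.00077 in the scaled series table.

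Without 1 array the log2 fold changes in glk1 glk2 versus wild type ran from -0.11 to 0.44 for ELIP1, 0.55 to 1.26 for ELIP2, -0.26 to 0.28 for OHP1, -0.10 to 0.29 for OHP2, -0.22 to 0.31 for LIL3:1, -0.077 to 0.16 for LIL3:2 and -0.20 to 0.19 for PSBS. In GLK1-SRDX versus wild type they ran from -0.31 to 0.068 for ELIP1, 0.06 to 0.63 for ELIP2, -0.22 to 0.10 for OHP1, -0.26 to -0.11 for OHP2, 0.05 to 0.40 for LIL3:1, 0.03 to 0.21 for LIL3:2 and -0.17 to 0.090 for PSBS. In GLK1-SRDX versus glk1 glk2 they ran from -0.55 to 0.0095 for ELIP1, -0.91 to -0.20 for ELIP2, -0.34 to 0.21 for OHP1, -0.49 to -0.09 for OHP2, -0.10 to 0.43 for LIL3:1, -0.049 to 0.17 for LIL3:2 and -0.25 to 0.14 for PSBS. The causes were not tested. The covariate, the unscaled table, the single-probe fit of OHP2 and the combinations with the block were added after the values were known. ELIP1 lay at 79.8 to 414 and ELIP2 at 33.0 to 276 intensity units, beside array medians of 85.5 to 160 over all probes, and such low signals limit precision.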
